A study of Mus musculus with 8 samples.

Results

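Fc gamma receptors bind the constant part of immunoglobulin G (IgG) on the surface of myeloid cells. The genes described here are the 4 mouse Fc gamma receptors, Fcgr1, Fcgr3, Fcgr4 and Fcgr2b, and Fcer1g, the gene of the common gamma chain, which are 5 of the 16889 genes of the deposited table. They were chosen by name, with earlier results of these data known. Expression was measured by single-cell RNA sequencing of CD11b+ cells with CCR2 or CD64 on their surface, sorted from the colonic lamina propria of female littermates of the CD98hcΔCX3CR1 strain. All mice carried floxed alleles of CD98hc (gene Slc3a2), an amino acid transporter subunit, and a tamoxifen-inducible Cre recombinase with a YFP reporter under the Cx3cr1 promoter. The 4 control mice (replicates 1 to 4) received corn oil and the 4 cKO mice (replicates 5 to 8) received tamoxifen, as 100 µl of a 20 mg/ml solution per the labels, on 5 days in a row. Cells were taken on day 7 from mice of 6 to 12 weeks. Only cKO mice received tamoxifen, so the drug and the loss of CD98hc cannot be told apart. The Cre acts in any cell that uses the Cx3cr1 promoter, so it is not limited to macrophages. The comparisons ask how Fc receptor RNA is spread over the sorted cell types and whether it differs between the conditions. CD64 is the protein made from Fcgr1, so this gene was also a marker of the sort.

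An activating Fc receptor hands its signal to kinases through the tyrosine motif (ITAM) of the common gamma chain. Fcgr1 encodes CD64, the high-affinity IgG receptor. Fcgr3 encodes CD16, a low-affinity receptor, and Fcgr4 a receptor of intermediate affinity for some IgG subclasses. Fcgr2b encodes CD32B, the only inhibitory receptor of the group, which carries its own inhibitory motif and recruits phosphatases. Gut macrophages are known for their CD64, which separates them from dendritic cells in most sorting schemes. Interferon gamma is known to raise Fcgr1 in macrophages.

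On GRCm38, Fcgr1 lies on chromosome 3 (96282909 to 96293969, minus strand). The other members lie on chromosome 1, all within 276 kb. They are Fcgr2b (170958617 to 170976547, minus strand), Fcgr4 (171018920 to 171029761, plus strand), Fcgr3 (171051174 to 171064935, minus strand) and Fcer1g (171229572 to 171234365, minus strand). Fcgr3 and Fcgr2b are close copies of each other in part of their sequence: of the 58-base words of the Fcgr3 transcripts, the length of the sequenced read, 8.19% also occur in Fcgr2b, but none of the last 500 bases of any member is shared with another gene. Fcgr2b also overlaps the gene Gm38204 on the opposite strand, and Cell Ranger tallied antisense reads apart. Promoters are shown because Fcgr1 and Fcer1g were the members that passed the test in all cells (below). Their 250 bases before the transcription start, from RefSeq on GRCm38.p6, are given 5′ to 3′ on the minus strand, with motif matches in capitals. All 5 members had a promoter entry.
Fcgr1, chr3:96293970-96294219: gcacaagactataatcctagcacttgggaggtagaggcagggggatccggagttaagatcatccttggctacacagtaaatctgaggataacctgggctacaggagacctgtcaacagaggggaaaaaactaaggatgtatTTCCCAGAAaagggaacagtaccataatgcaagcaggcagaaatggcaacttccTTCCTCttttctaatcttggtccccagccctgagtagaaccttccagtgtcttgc
Fcer1g, chr1:171234350-171234599: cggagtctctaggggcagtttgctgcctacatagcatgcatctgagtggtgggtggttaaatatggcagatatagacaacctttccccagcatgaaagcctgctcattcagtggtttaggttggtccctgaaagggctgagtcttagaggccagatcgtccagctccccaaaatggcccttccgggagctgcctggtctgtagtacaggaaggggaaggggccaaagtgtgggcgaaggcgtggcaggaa

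The search covered TTCNNNGAA (the interferon gamma activated sequence, a palindrome), the interferon stimulated response element (GAAA, any 2 bases and GAAA) and GAGGAA (the Ets core bound by PU.1, a myeloid factor), on both strands. Fcgr1 held TTCCCAGAA at bases -109 to -101 before the start, and was the only member with a TTCNNNGAA match, which 7.02% of the 32851 promoter windows held. Fcgr4 was the only member with a match to the interferon stimulated response element, GAAAAGGAAA at -73 to -64, which 2.98% of windows held. Fcgr1, Fcgr3 and Fcgr4, the 3 activating receptors, each held GAGGAA once (Fcgr3 in each of its 2 windows), which 23.3% of windows held. Fcgr2b and Fcer1g held none of these letters in their windows. In each activating receptor the Ets core was on the strand opposite to the gene, so that it reads TTCCTC in 30-base stretches with the match in capitals:
Fcgr1, chr3:96294007-96294036, minus strand: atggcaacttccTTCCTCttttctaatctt
Fcgr3, chr1:171059392-171059421, minus strand: gagtccatttccTTCCTCtttttgtagttc
Fcgr4, chr1:171018892-171018921, plus strand: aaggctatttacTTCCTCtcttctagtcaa
A match describes the letters only, and no binding was measured.

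After filters on cells, 3213 of 5947 barcodes remained, with 85 to 724 cells per control mouse and 83 to 484 per cKO mouse. Depth was 497531 to 3762314 UMIs (unique molecular identifiers, each a counted transcript end) per mouse. Control replicate 3 and cKO replicate 5 had the fewest cells, and in the latter Scrublet marked 24 of 83 cells as doublets. Levels are given as CPM, which are UMI counts scaled to the same total in each sum of cells and not divided by transcript length. Slc3a2 had 358, 264, 233 and 493 CPM in control replicates 1 to 4 and 291, 357, 323 and 309 in cKO replicates 5 to 8. The groups overlapped (log2 fold change 0.02 ± 0.21 SE, edgeR adjusted p = 0.976), and since the excised part is exon 3 and the UMIs are read at the 3′ end of the transcript, this gene does not check the deletion. Cells fell into 9 clusters, which were built without the Fc receptor genes and named by markers. They were a monocyte-like cluster 1 (615 cells, led by Chil3, Mgst1 and Ly6c2), a dendritic cell-like cluster 2 (532 cells, Cd209a, Xcr1 and Flt3), macrophage-like clusters 3 (489 cells, C1qa, C1qc and Pf4) and 7 (271 cells, Ccl8, Pf4 and Folr2), a lymphoid-like cluster 8 (186 cells) and a stromal-like cluster 9 (86 cells). Clusters 4 (477 cells, Saa3, Il1rn and Arg1), 5 (280 cells, Ccr2, Prtn3 and Lyz1) and 6 (277 cells, Cebpb, Jund and Vegfa) stayed unnamed. Clusters 6 and 7 were shallow, with medians of 1889 and 1165 UMIs per cell.

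In all cells of a mouse summed, Fcgr1 and Fcer1g were higher in cKO than in control mice. Fcgr1, the high-affinity receptor, had 180, 134, 170 and 197 CPM in control mice and 283, 233, 407 and 315 in cKO mice. All 4 cKO mice were above all 4 control mice, and the log2 fold change was 0.97 ± 0.20 (SE, n = 4 per group, edgeR quasi-likelihood adjusted p = 0.0199). The common chain Fcer1g had 2709, 2074, 1845 and 2942 CPM in control mice and 3089, 3650, 5088 and 3915 in cKO mice. These groups did not overlap either, and the log2 fold change was 0.82 ± 0.19 (SE, edgeR adjusted p = 0.0354). Thus 2 of the 5 members rose and none fell, where 2.99% of the 11387 genes tested rose and 1.48% fell. Groups with all cKO mice above all control mice were found for 4% of genes tested. In such sums over all cells, more cells of a type and more RNA per cell cannot be told apart.

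The other receptors did not pass the test. Fcgr4 had 182, 149, 134 and 142 CPM in control mice and 175, 169, 232 and 182 in cKO mice, and only control replicate 1 reached the range of the cKO mice (log2 fold change 0.42 ± 0.16 SE, edgeR adjusted p = 0.166). Fcgr3 ranged from 336 to 604 in control and from 352 to 895 in cKO mice, with a wide overlap (0.38 ± 0.27 SE, edgeR adjusted p = 0.468). The inhibitory Fcgr2b ranged from 468 to 740 in control and from 511 to 974 in cKO mice, with the highest value in cKO replicate 7 (0.21 ± 0.23 SE, edgeR adjusted p = 0.650). The median log2 fold change was 0.42 over the 5 members and -0.03 over all genes tested. In every member cKO replicate 7 had the highest level of the 8 mice.

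**Figure D1:**
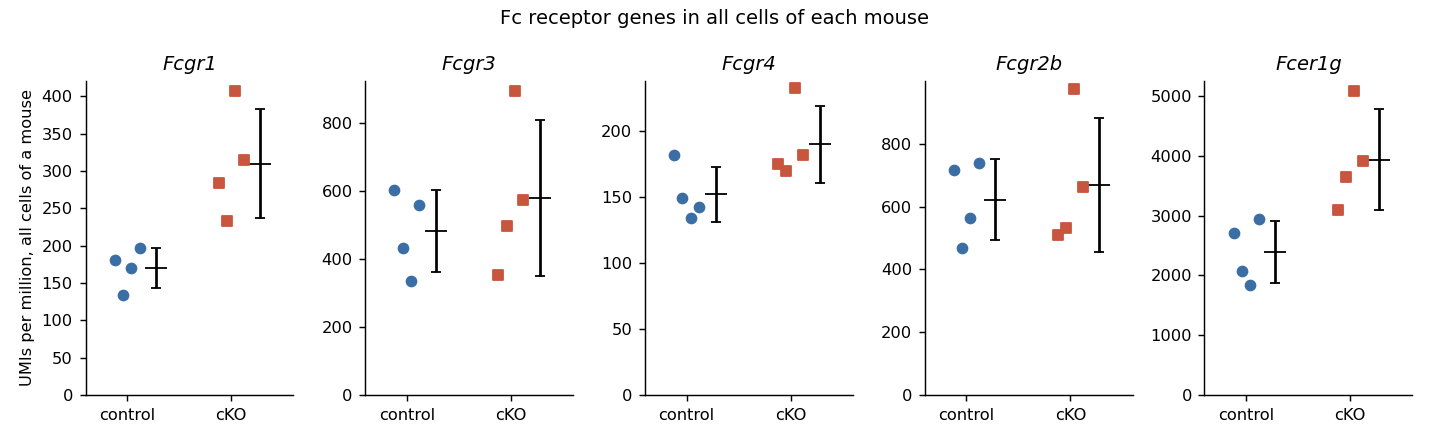
CPM of each Fc receptor gene in all cells of a mouse (vertical axis) for control (circles) and cKO mice (squares); each point is a mouse, and the bar gives the mean ± SD of 4 mice. For Fcgr1 and Fcer1g the 4 cKO mice lie above the 4 control mice, and for Fcgr3 and Fcgr2b the groups overlap widely.

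The calls in all cells depended on which cells and mice were used. With doublet calls left out, the edgeR adjusted p was 0.0688 for Fcgr1 and 0.0921 for Fcer1g. The Fcgr1 call was lost without control replicate 1 (0.0604), control replicate 2 (0.0747), cKO replicate 7 (0.0513) or cKO replicate 8 (0.0545). The Fcer1g call was lost without control replicate 1 (0.0748), 2 (0.129) or 3 (0.0644), or without cKO replicate 6 (0.0667), 7 (0.103) or 8 (0.0805). The log2 fold change of Fcgr1 stayed between 0.78 and 1.09, and that of Fcer1g between 0.65 and 0.94, whichever mouse was left out. Without the 2 mice of fewest cells both calls held, with edgeR adjusted p = 0.0434 for Fcgr1 and 0.0400 for Fcer1g.

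The share of each gene in the UMIs of the 4 receptors is given as a description, with no test. UMIs are read at transcript ends and are not divided by transcript length, so these shares compare counted molecules of different genes, which may be captured unequally. In control mice Fcgr1 took 10.7%, 11.3%, 14.1% and 12.05% of the receptor UMIs, and in cKO mice 21.5%, 16.3%, 16.2% and 18.2%. All cKO mice were above all control mice. Fcgr2b took 39.6% to 46.8% in control and 37.2% to 38.8% in cKO mice, so that here all cKO mice were below. Fcgr3 took 27.9% to 36.5% against 26.6% to 35.7%, and Fcgr4 8.68% to 12.6% against 9.27% to 13.2%, with overlap in both.

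**Figure D2:**
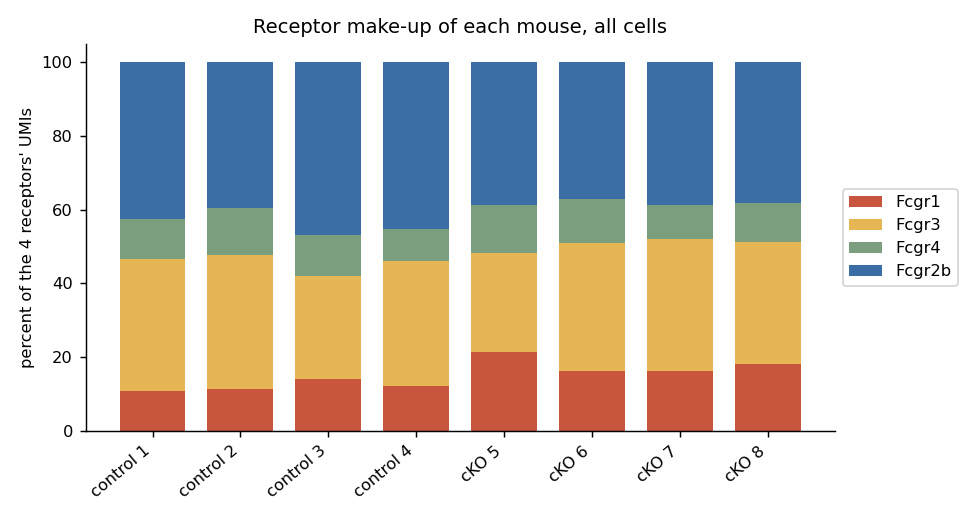
Share of each receptor gene in the UMIs of the 4 Fc gamma receptors (vertical axis, percent) in each mouse. The Fcgr1 segment is 10.7% to 14.1% in control and 16.2% to 21.5% in cKO mice.

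The ratio of activating (Fcgr1, Fcgr3 and Fcgr4 together) to inhibitory (Fcgr2b) UMIs in all cells was 1.35, 1.52, 1.14 and 1.21 in control mice and 1.59, 1.69, 1.58 and 1.62 in cKO mice. The groups did not overlap, and the log2 ratio averaged 0.38 ± 0.19 for control and 0.69 ± 0.05 for cKO mice (SD over 4 mice), a difference of 0.32. The two-sided exact permutation test over 70 arrangements gave p = 0.0286, the smallest it can give, and 0.143 after adjusting over the 5 sets of cells compared. Without Fcgr1 the difference was 0.17 (exact permutation p = 0.257), and with doublet calls left out it was 0.27 (exact permutation p = 0.0571). Taken gene by gene, a choice made after seeing the data, the log2 ratio to Fcgr2b differed by 0.77 for Fcgr1 (exact permutation p = 0.0286), 0.14 for Fcgr3 (exact permutation p = 0.457) and 0.24 for Fcgr4 (exact permutation p = 0.257). Within cell classes, the difference was 0.77 in dendritic cell-like (4 control and 3 cKO mice, exact permutation p = 0.114), 0.72 in lymphoid-like (3 and 3 mice, exact permutation p = 0.2), 0.14 in macrophage-like (4 and 4 mice, exact permutation p = 0.286) and -0.26 in monocyte-like cells (3 and 3 mice, exact permutation p = 0.3). None of these passed, and with 3 mice against 3 the test cannot go below 0.1. Within classes the ratio thus had no common direction.

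Across cell types, the mean level of every Fc receptor gene was lower in dendritic cell-like, lymphoid-like and stromal-like cells than in the monocyte-like and macrophage-like clusters, although in cKO replicate 8 Fcgr4 was higher in dendritic cell-like (54.5 CPM) than in monocyte-like cells (39.5 CPM). Levels below are CPM over sums of at least 20 cells of a cluster and mouse, as mean ± SD over mice of both conditions. Neighbours in the order are said to differ where their mean log2 difference within mice is larger than its SD.

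Fcgr1 was highest in cluster 4, at 419 ± 56.7 (n = 5 mice), followed by clusters 7 (311 ± 70.1, n = 6), 5 (304 ± 80.4, n = 4), 1 (301 ± 92.5, n = 6) and 3 (296 ± 37.1, n = 5). Cluster 4 exceeded cluster 7 in 4 of 5 mice, by 0.47 ± 0.42 on the log2 scale (SD). Clusters 7 and 5, and clusters 1 and 3, did not differ beyond their spread, and cluster 5 exceeded cluster 1 by only 0.07 ± 0.04. Cluster 6 was lower, at 205 ± 68.2 (n = 7), and below cluster 3 in 5 of 5 mice. Dendritic cell-like cells had 51.0 ± 36.3 (n = 7) and were below cluster 6 in 7 of 7 mice. Lymphoid-like cells had 11.7 ± 16.0 (n = 6), with 3 of these mice at 0. Stromal-like cells had no UMI of Fcgr1 in their single mouse with 20 cells.

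Fcgr3 was 968 ± 233 in cluster 7 (n = 6), 957 ± 129 in cluster 4 (n = 5), 854 ± 137 in cluster 5 (n = 4), 815 ± 228 in cluster 3 (n = 5) and 761 ± 157 in cluster 1 (n = 6). Within this order, cluster 4 exceeded cluster 5 beyond the spread, and the other neighbours did not differ. Cluster 6 followed with 495 ± 96.5 (n = 7), below cluster 1 in 6 of 6 mice. Dendritic cell-like cells had 69.6 ± 34.5 (n = 7) and lymphoid-like cells 51.7 ± 33.9 (n = 6), which did not differ beyond their spread. This was a drop of 2.95 ± 0.83 on the log2 scale (SD) from cluster 6 to the dendritic cell-like cells.

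Fcgr4 set macrophage-like cells apart from monocyte-like cells. It was highest in macrophage-like cluster 7, at 572 ± 125 (n = 6), then in cluster 4 (376 ± 84.1, n = 5) and macrophage-like cluster 3 (326 ± 57.6, n = 5). Cluster 7 exceeded cluster 4 in 5 of 5 mice, and clusters 4 and 3 did not differ beyond their spread. Clusters 6 (201 ± 129, n = 7) and 5 (159 ± 63.7, n = 4) were intermediate, with cluster 6 below cluster 3 in 5 of 5 mice, and monocyte-like cluster 1 had 90.1 ± 32.4 (n = 6). Dendritic cell-like (18.3 ± 17.5, n = 7) and lymphoid-like cells (17.5 ± 14.2, n = 6) did not differ beyond their spread.

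The inhibitory Fcgr2b had another order, led by cluster 4 with 1379 ± 149 (n = 5). Clusters 5 (943 ± 255, n = 4), 3 (912 ± 195, n = 5) and 6 (860 ± 201, n = 7) followed, and neighbours among these did not differ beyond the spread. Cluster 7 had 595 ± 143 (n = 6), below cluster 6 in 6 of 6 mice, and did not differ from monocyte-like cluster 1 with 530 ± 208 (n = 6). Dendritic cell-like cells had 181 ± 59.1 (n = 7) and lymphoid-like cells 119 ± 54.9 (n = 6). By counted UMIs, Fcgr2b took 59.1% of the receptor UMIs of dendritic cell-like cells and 33.7% of those of monocyte-like cluster 1.

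The common chain Fcer1g had the highest CPM of the members in all 9 clusters. It was highest in cluster 7, at 6722 ± 771 (n = 6), and above cluster 4 (5326 ± 741, n = 5) in 5 of 5 mice. Clusters 6 (4615 ± 1147, n = 7), 1 (4611 ± 361, n = 6), 3 (3935 ± 297, n = 5) and 5 (3803 ± 546, n = 4) followed. Of the neighbours among these, only clusters 1 and 3 differed beyond the spread, in 5 of 5 mice. Pairs further apart in the order were not compared. Dendritic cell-like cells had 911 ± 306 (n = 7), lymphoid-like cells 531 ± 302 (n = 6) and the single stromal-like sum 141.

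**Figure D3:**
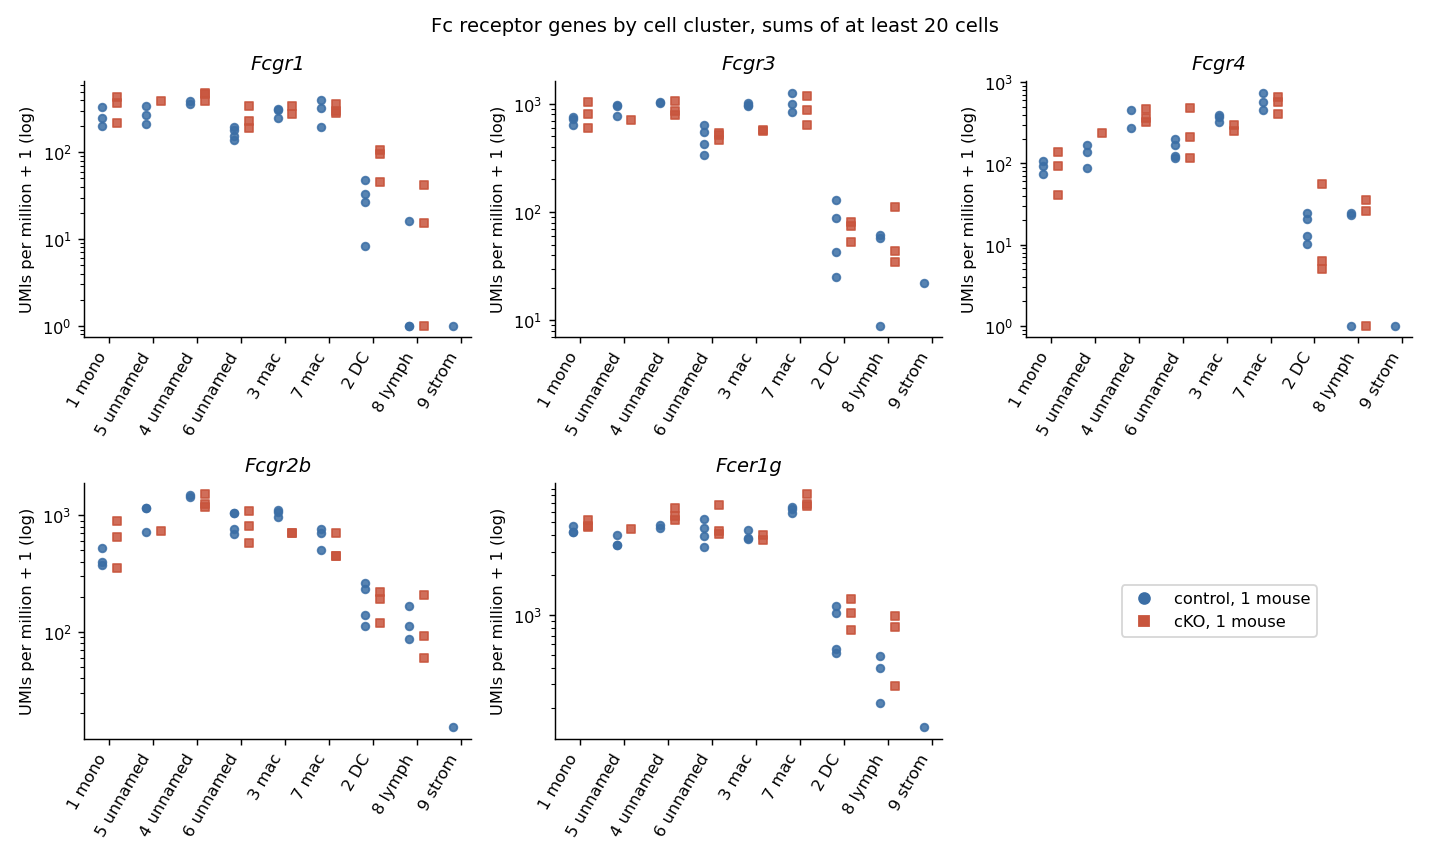
CPM plus 1 (vertical axis, log scale) of each Fc receptor gene by cluster (horizontal axis; mono, monocyte-like; mac, macrophage-like; DC, dendritic cell-like; lymph, lymphoid-like; strom, stromal-like) in sums of at least 20 cells; each point is a mouse, control as circles and cKO as squares. Mean levels are lowest in dendritic cell-like, lymphoid-like and stromal-like cells for all 5 genes, and Fcgr4 is lower in monocyte-like cluster 1 (90.1 ± 32.4) than in macrophage-like clusters 3 and 7.

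Classes were then compared within mice by an exact two-sided sign-flip test of log2(CPM + 1), adjusted over 15 tests, with the macrophage-like clusters 3 and 7 joined. All 5 members were higher in macrophage-like than in dendritic cell-like cells in 7 of 7 mice (exact p = 0.0156, the smallest possible, adjusted p = 0.0469 each). The mean log2 difference was 4.80 ± 1.16 for Fcgr4, 3.70 ± 0.76 for Fcgr3, 3.08 ± 1.23 for Fcgr1, 2.31 ± 0.53 for Fcgr2b and 2.31 ± 0.35 for Fcer1g (SD). Monocyte-like cells were above dendritic cell-like cells in 6 of 6 mice for Fcgr3 (3.35 ± 0.62), Fcgr1 (2.81 ± 1.01), Fcer1g (2.29 ± 0.39) and Fcgr2b (1.48 ± 0.80), each with an exact p = 0.0312 and adjusted p = 0.0469. Fcgr4 was the exception, being higher in 5 of 6 mice (exact p = 0.0625, adjusted p = 0.0852), with cKO replicate 8 the other way. The share of all genes with 1 sign in every mouse was not computed. These counts therefore do not set the members apart from other genes.

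Between macrophage-like and monocyte-like cells, only Fcgr4 differed in every mouse. It had 384, 394 and 404 CPM in macrophage-like cells of control replicates 1, 2 and 4, and 287, 399 and 386 in those of cKO replicates 6, 7 and 8. In monocyte-like cells of the same mice it had 74.1, 107, 91.8, 136, 91.8 and 39.5. No macrophage-like value was as low as any monocyte-like value, and the mean log2 difference was 2.13 ± 0.71 (SD, 6 of 6 mice, exact p = 0.0312, adjusted p = 0.0469). Fcgr2b was higher in macrophage-like cells in 5 of 6 mice (0.75 ± 0.67 SD, exact p = 0.0938, adjusted p = 0.117). The log2 difference was 0.13 ± 0.35 for Fcgr1, 0.14 ± 0.42 for Fcgr3 and -0.04 ± 0.07 for Fcer1g, with no common sign. The gate took cells with CCR2 or CD64. Cells with CCR2 could thus enter without the protein of Fcgr1, and cells without CCR2 could not. The part of the gate in these differences was not tested.

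The share of cells with a UMI of a gene followed the same pattern. Each cell was also thinned to 1000 UMIs, which left out 101 macrophage-like, 25 monocyte-like, 13 dendritic cell-like and 3 stromal-like cells. In macrophage-like cells (median 3579 UMIs) Fcgr4 was seen in 56.3% of 760 cells (95% Wilson interval 52.8% to 59.8%) and in 28.1% after thinning. In monocyte-like cells (median 4661 UMIs) it was seen in 24.7% of 615 cells (21.5% to 28.3%) and in 7.80% after thinning. Stromal-like cells (median 4824 UMIs), which are not known to use these receptors, had Fcgr4 in 0 of 86 cells, which allows a share of up to 3.49%. Intervals and limits cover counting error only.

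Fcer1g was seen in 98.9% of macrophage-like, 99.8% of monocyte-like, 90.2% of dendritic cell-like and 40.7% of stromal-like cells, and after thinning in 95.8%, 98.1%, 47.0% and 10.8%. Free RNA in the droplets thus has to be read beside the low levels. In dendritic cell-like cells (median 9137 UMIs) the thinned share was 3.85% for Fcgr1 (2.51% to 5.88%), 7.51% for Fcgr3 (5.55% to 10.1%) and 1.54% for Fcgr4 (0.783% to 3.01%). The lower bounds of these shares were not above the upper bounds in stromal-like cells, which were 4.42% for Fcgr1 (0 of 83 cells, which allows up to 3.61%), 6.51% for Fcgr3 and 4.42% for Fcgr4. By this rule and at this depth, the 3 activating receptors were not set apart from background in dendritic cell-like cells. The bounds rest on 83 stromal-like cells, and bounds that overlap do not show equal shares. Before thinning, dendritic cell-like cells had shares of 18.4% for Fcgr1, 26.1% for Fcgr3 and 9.96% for Fcgr4. Stromal-like cells, with fewer UMIs per cell, had 2.33%, 4.65% and 0%. After thinning, Fcgr2b (15.6%, 12.7% to 19.0%, against 8.37%) and Fcer1g were above the stromal-like bound. In total 12 of 15 pairs of member and myeloid class were above the stromal-like bound, against 11 with thinning to 500 UMIs and 13 with thinning to 2000.

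Within clusters, 1 of 35 pairs of member and cluster passed the test between conditions, where 0.384% of all gene and cluster pairs did. The fit covered 7 clusters and 11320 genes, and 5 of the 35 pairs had an unadjusted p under 0.05. From 496 to 1122 of the 11320 genes of a cluster had such a p. With DESeq2, 1 of 35 pairs was called. The pair was Fcgr1 in dendritic cell-like cluster 2, where it had 25.9, 7.22, 31.8 and 47.3 CPM in control mice and 44.2, 94.2 and 106 in cKO replicates 6, 7 and 8. These rest on 33, 11, 8 and 55 UMIs in control and 11, 18 and 39 UMIs in cKO mice. Control replicate 4 was above cKO replicate 6, so the groups overlapped. The log2 fold change was 1.596 ± 0.376 (SE, edgeR adjusted p = 0.0205), in a cluster where 0.451% of genes rose.

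The call depended on single mice, and was lost without control replicate 1 (edgeR adjusted p = 0.158), control replicate 2 (0.317), cKO replicate 7 (0.158) or cKO replicate 8 (0.867), and with the cluster fitted alone (0.505). The monocyte marker list (8 genes) summed to 838 to 1559 CPM in the control and 1504 to 2931 in the cKO mice of this cluster, and the dendritic cell list (9 genes) to 1386 to 1668 and 1086 to 1419. The macrophage list (12 genes) summed to 282 to 477 and 249 to 412. The part of these markers in the result was not tested. The share of these cells with an Fcgr1 UMI was 15.2%, 7.25%, 25% and 26.4% in control replicates 1 to 4 and 14.3%, 25%, 39.1% and 23.8% in cKO replicates 5 to 8, of which replicate 5 had only 7 such cells. These shares overlapped between the conditions.

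In monocyte-like cluster 1, no member passed the test. Fcgr1 had 250, 200 and 336 CPM in control replicates 1, 2 and 4 and 216, 429 and 372 in cKO replicates 6, 7 and 8 (log2 fold change 0.60 ± 0.32 SE, edgeR adjusted p = 0.550). Fcgr2b had 371, 400 and 520 against 350, 887 and 652 (0.79 ± 0.29 SE, edgeR adjusted p = 0.253). In both genes cKO replicate 6 lay within or below the control range while the other 2 cKO mice were above it. Fcer1g differed by 0.38 ± 0.26 (SE), Fcgr3 by 0.44 ± 0.29 (SE) and Fcgr4 by 0.21 ± 0.41 (SE) on the log2 scale.

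In macrophage-like cluster 3 no member passed the test in the joint fit, and all 5 log2 fold changes were negative. The median over the 11320 genes of this cluster was -0.20, so the sign alone does not set the members apart from other genes. Fcgr3 had 1012, 960 and 971 CPM in control replicates 1, 2 and 4 and 574 and 559 in cKO replicates 6 and 8. Fcgr2b had 1073, 968 and 1106 against 711 and 702 in the same mice. Fcgr4 had 369, 391 and 328 against 248 and 293. In all 3 genes the cKO mice were below the control mice (Fcgr3 log2 fold change -0.96 ± 0.34 SE, edgeR adjusted p = 0.304; Fcgr2b -0.73 ± 0.33 SE, edgeR adjusted p = 0.489; Fcgr4 -0.59 ± 0.39 SE, edgeR adjusted p = 0.679). The share of all genes with such a split between the mice of this cluster is not given here. With the cluster fitted alone, Fcgr3 passed (-0.80 ± 0.18 SE, edgeR adjusted p = 0.0180). Fcgr1 (-0.07 ± 0.35 SE) and Fcer1g (-0.20 ± 0.30 SE) were close to no difference in the joint fit. The monocyte marker list summed to 242 to 297 CPM in the control and 835 to 1144 in the cKO mice of this cluster. The macrophage list summed to 20400 to 24747 and 14617 to 16432. The part of these markers in the lower values was not tested.

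In cluster 4, Fcer1g had 4788 and 4572 CPM in control replicates 1 and 4 and 5209, 6438 and 5624 in cKO replicates 6, 7 and 8 (0.39 ± 0.30 SE, edgeR adjusted p = 0.847), and with limma-voom it passed (adjusted p = 0.0445). In lymphoid-like cluster 8, Fcer1g differed by 1.003 ± 0.301 (SE, edgeR adjusted p = 0.374), with cKO values of 812, 292 and 977.5 CPM and a control range of 214 to 493. Leaving out cKO replicate 7, which lay within the control range, left only cKO replicates 6 and 8, and the pair then passed (edgeR adjusted p = 0.0166). That pass rests on dropping the mouse that went against the difference. Over the 7 clusters, 22 of 35 log2 fold changes were positive. Whether the change differed between clusters was tested by an interaction term over all 7, and no member passed (unadjusted p = 0.0519 for Fcgr2b, 0.0557 for Fcgr1 and 0.0858 for Fcgr3, edgeR adjusted p = 0.9995 for all 5).

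The levels in all cells also move with the mixture of clusters. Monocyte-like cells gave 4.14% to 7.70% of the UMIs of control mice and 17.7% to 43.8% of those of cKO mice, and dendritic cell-like cells 33.8% to 46.6% and 7.68% to 16.4%. The mixture was therefore held fixed in turn. Each mouse's own cluster levels were weighted by cluster shares common to all 8 mice. Here a cluster of a mouse counted from 1 cell on, not from 20. In control replicate 3, cluster 4 was 1 cell with 0 UMIs of Fcgr1 and 0 of Fcgr3. The other control mice had 315 to 386 CPM of Fcgr1 in that cluster, and the weight of this cell in the result was not tested. At the common shares Fcgr1 had 195, 167, 198 and 213 CPM in control and 243, 220, 339 and 277 in cKO mice. The cKO mice were still above the control mice, with a log2 difference of 0.47 against 0.97 in the fit on all cells (exact permutation p = 0.0286, the smallest possible, adjusted p = 0.143 over 5 genes). Fcgr1 was the only one of 5 members whose groups did not overlap with cKO higher, where 2.57% of genes did so. It overlapped with doublet calls left out (0.30), without control replicate 1 (0.47), with 7 clusters (0.41) or with clusters built on all genes (0.28). Without control replicate 3 its groups stayed apart (0.47).

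The groups of the other 4 members overlapped at fixed shares, among them those of Fcer1g, which had not overlapped in all cells. Fcer1g had 2789 ± 481 CPM over the control mice and 3289 ± 494 over the cKO mice (SD, n = 4; log2 difference 0.24, exact permutation p = 0.2). Fcgr4 had 164 ± 15.6 and 170 ± 21.3 (log2 difference 0.05, exact permutation p = 0.6). Fcgr3 (523 ± 138 against 457 ± 127, log2 difference -0.19, exact permutation p = 0.543) and Fcgr2b (667 ± 63.2 against 568 ± 106, -0.25, exact permutation p = 0.114) had the opposite sign to their values in all cells. Without cKO replicate 7, the highest cKO mouse, all remaining cKO mice were below the control mice in Fcgr2b (exact permutation p = 0.0571, adjusted p = 0.143). The share of all genes with cKO mice lower at fixed shares is not given here. Conversely, with cluster levels common to all mice and each mouse's own shares, the log2 difference was 0.58 for Fcgr1, 0.55 for Fcgr3, 0.53 for Fcer1g, 0.38 for Fcgr2b and 0.26 for Fcgr4.

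**Figure D4:**
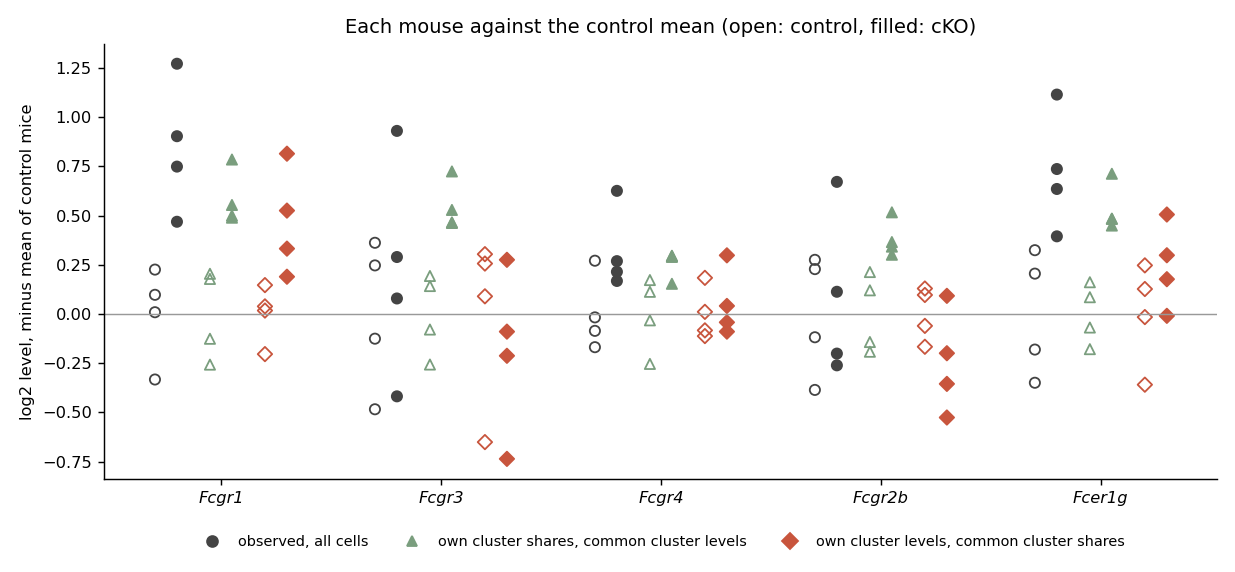
Log2 level of each member minus the mean of the control mice (vertical axis), as observed in all cells (circles), from each mouse's cluster shares with common cluster levels (triangles) and from each mouse's cluster levels with common cluster shares (diamonds); open symbols are control and filled symbols cKO mice, 1 point per mouse. At common shares the cKO mice stay above the control mice for Fcgr1 (log2 difference 0.47) and overlap with them for the other 4 genes.

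Genes with the pattern most like each member were taken by Pearson's r of log2(CPM + 1) over 42 sums of cluster and mouse, which share mice and depth, as a description among 11320 genes. Fcer1g was most like Lst1 (r = 0.96), Ctss (0.95), Ms4a6c (0.94), Cstb (0.94) and Clec4a1 (0.94). Fcgr1 was most like Zeb2os (0.95), Pilrb1 (0.94), Ms4a6c (0.94), Ctss (0.93) and Fcer1g (0.93). The list of Fcgr3 held Clec4a3 (0.95), Ctss (0.94), Ctsa (0.94), Gm5150 (0.94) and Fcer1g (0.94). Ctss, which encodes the lysosomal protease cathepsin S, was thus near 4 of the 5 members. Fcgr2b was most like Ctss (0.92), Lrrc25 (0.91), Csf1r (0.90), Slc11a1 (0.90) and Fcgr3 (0.89). Fcgr4 stood somewhat apart, with Clec4a2 (0.90), Rab3il1 (0.88), Lst1 (0.87), Ctsc (0.86) and Rgl1 (0.85), and its lowest r with another member was 0.76, with Fcgr1.

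Genes that work with Fc receptors were followed in all cells by lists, where 2.99% of all genes tested rose and 1.48% fell. These sums also move with the mixture of clusters (above), and its part in the list values was not tested. Of the 5 subunits of the phagocyte oxidase, which makes superoxide after Fc receptor engagement, 2 rose. Cybb, its membrane subunit, had 272, 225, 244 and 273 CPM in control and 398, 516, 434 and 412 in cKO mice, with no overlap (log2 fold change 0.89 ± 0.14 SE, edgeR adjusted p = 0.00621). Cyba, its partner in the membrane, rose by 0.69 ± 0.15 (SE, edgeR adjusted p = 0.0281). The median over the oxidase list was 0.65, and the other subunits did not pass.

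Among 14 tested receptors and adaptors that pair with Fcer1g or Tyrobp, 4 rose and none fell, with a median of 0.52. Trem1, an amplifier of inflammatory signals, had 5.09 to 26.3 CPM in control and 30.1 to 132 in cKO mice (log2 fold change 2.497 ± 0.466 SE, edgeR adjusted p = 0.0131). Clec4e, the receptor Mincle that signals through Fcer1g, rose from 106 ± 69.5 to 457 ± 196 (SD, n = 4; 2.23 ± 0.46 SE, edgeR adjusted p = 0.0204). Trem3 rose by 1.95 ± 0.39 (SE, edgeR adjusted p = 0.0178). In all 3 genes the cKO mice were above the control mice. Clec4e and Trem1 also rose within monocyte-like cluster 1, the cluster that gave more of the UMIs in cKO mice.

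The kinases and adaptors downstream of the ITAM did not pass. Of 31 genes tested, edgeR called 0 and DESeq2 0 of 30, with 8 at an unadjusted p under 0.05, 22 positive log2 fold changes and a median of 0.17. Over all 11387 genes tested, 2343 had an unadjusted edgeR p under 0.05. Of 16 genes of inhibitory signalling, edgeR and DESeq2 called 0, with 3 at an unadjusted p under 0.05 and a median of 0.26. Among 6 other genes of Fc binding and IgG handling, 1 rose and 1 fell. Fcgrt, the heavy chain of the neonatal Fc receptor that recycles IgG, had 175, 161, 126 and 105 CPM in control and 98.5, 59.3, 38.6 and 56.9 in cKO mice and fell by 1.15 on the log2 scale (SE 0.25, edgeR adjusted p = 0.0248). It also fell within macrophage-like cluster 3. B2m, the light chain it shares with MHC class I, rose by 1.005 ± 0.151 (SE, edgeR adjusted p = 0.00471). The 2 chains of this receptor thus moved in opposite directions. The genes of IgG itself were not analysed here.

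Interferon gamma targets, the group to which Fcgr1 is known to belong, also split. Of 10 tested, 3 rose and 2 fell, and the median was 0.75. Cxcl10, a chemokine, had 57.7 to 96.6 CPM in control and 138 to 237 in cKO mice (1.31 ± 0.21 SE, edgeR adjusted p = 0.00623). Gbp4, a guanylate-binding protein, rose by 1.34 ± 0.31 (SE, edgeR adjusted p = 0.0316). Ciita, the master regulator of MHC class II, fell by 0.98 on the log2 scale (SE 0.24, edgeR adjusted p = 0.0392), and Irf8, a factor of dendritic cells and monocytes, fell by 0.89 (SE 0.18, edgeR adjusted p = 0.0204). Dendritic cell-like cells, a group known to use both genes, gave less of the UMIs in cKO mice (above), and the part of that in these values was not tested.

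**Figure D5:**
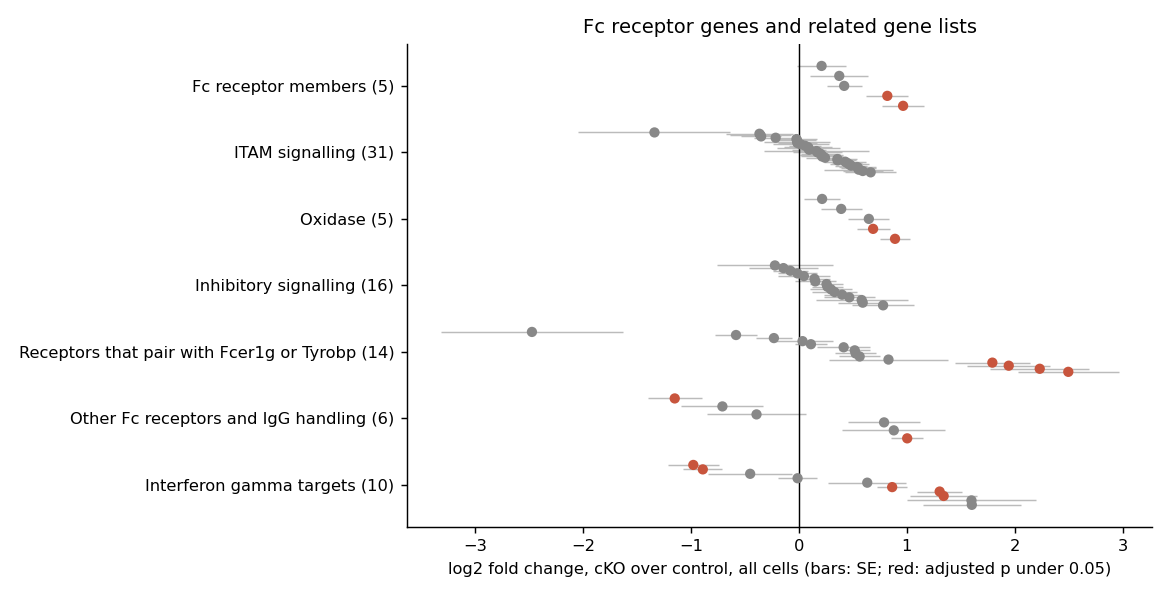
Log2 fold change (cKO over control, all cells, horizontal axis) of the Fc receptor members and the tested genes of each list (number in brackets), each point a gene with its SE; red points passed the test. Fcgr1 and Fcer1g are the red members, with 2 of 5 oxidase genes and 4 of 14 partner receptors also above 0, and Fcgrt, Ciita and Irf8 on the other side.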

How the data were processed

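Colonic lamina propria cells were sorted and sequenced with the 10x Genomics 3′ v2 kit, 1 library per mouse, all prepared on the same day. Per the methods, the authors processed reads with Cell Ranger and STAR (2.5.3a) against mm10 with EYFP added and deposited raw UMI counts per gene and barcode, joined without down-sampling. Barcodes were renumbered in the deposited table, so those shared between libraries were not counted.

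Cells with log10 UMIs of at least 2.8, log10 genes of at least 2.6, at most 5% mitochondrial UMIs and no hemoglobin were kept (median 4149 to 5538 UMIs per cell and mouse). Scrublet calls (15 control, 58 cKO) stayed in, with an alternative without them. Clustering (scran 1.30.0, 8 principal components, 11870 genes) left out 300 genes, among them the members, the lists and the study's listed genes. Clusters were named by marker lists. CPM sums per mouse were tested with edgeR 4.0.16 (quasi-likelihood, TMM, genes above 1 CPM in 3 mice with a UMI in at least 20 cells, Benjamini-Hochberg rate of 0.05). Sums per cluster needed 20 cells, 2 mice per condition and shared 1 fit, with adjustment over genes within each cluster. The levels at fixed cluster shares used every cluster with at least 1 cell in each mouse. Single values used exact permutation (scipy 1.17.1). The ratio added 0.5 UMIs to both sums, and log2 levels between classes a pseudocount of 1 CPM. Alternatives used DESeq2 1.42.0 and limma 3.58.1. Wells were separate mice, so p-values outside the cluster fits measure the spread between mice. The joint cluster fit and its interaction term had no term for the mouse. They treat sums of the same mouse in several clusters as independent, and only the limma-voom alternative took the mouse as a random term. Replicate numbers differ between conditions and pair nothing.

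On simulated counts with 200 genes changed by 4 times, the fit of all cells recovered 164 genes with 7 wrong among 11387. The fits of clusters 1, 2, 3, 4, 6, 7 and 8 recovered 56, 88, 44, 61, 32, 19 and 41 of such 200 genes among 11320, so a missed threshold within a cluster leaves room for changes of that size. Named genes were the members, the 5 genes most like each, and at most 3 rising and 3 falling genes per list. Members and lists were chosen with earlier results of these data known. Values of 1 list gene that this rule names are not reported here.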

Additional observations from a re-analysis of the deposited data

Results flagged for a closer look

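The values of each member were examined in 43 groups of 4 mice for a mouse far from the other 3, and in 0 of them did the gap pass Dixon's critical value.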

How the results depend on the processing

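In all cells 2 of 5 members passed; with doublet calls left out 0 passed, and with a mouse left out 0 to 2. Within clusters 1 of 35 pairs passed, against 2 with limma-voom, 2 with no filter on low counts, 0 with clusters built on all genes, 0 with 7 clusters, 0 with 12 clusters, and 0 to 1 with a mouse left out. At fixed cluster shares 1 member kept its groups apart, against 0 with clusters built on all genes, 0 with 7 clusters, 0 with doublet calls left out, and 0 to 2 with a mouse left out. The log2 difference of the activating to inhibitory ratio (0.32) was 0.17 without Fcgr1, 0.27 without doublet calls, 0.14 for Fcgr3 alone, 0.24 for Fcgr4 alone, and 0.25 to 0.40 with a mouse left out, where the exact permutation p was 0.0571 without any 1 of the cKO mice and 0.0286 without any 1 of the control mice. The cause of these changes was not tested. Of the 15 class comparisons, 10 had 1 sign in all mice, and 10 to 11 with a mouse left out, a count not taken over all genes. Of the members in all cells, only Fcgr2b, which did not pass the test, changed sign under an alternative (log2 fold change -0.05 without cKO replicate 7). No paired analysis was possible because the conditions share no replicate numbers. Low counts limit Fcgr1 and Fcgr4 in dendritic cell-like, lymphoid-like and stromal-like cells.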

Other observations

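Fcgr1 took a larger share of the receptor UMIs in cKO than in control cells of 7 of the 8 clusters with more than 20 receptor UMIs. In macrophage-like cluster 3 the pooled share was 11.5% in control and 17.8% in cKO cells, in cluster 5 it was 11.3% and 23.5%, and in dendritic cell-like cluster 2 it was 8.17% and 24.1%. Monocyte-like cluster 1 was the exception, with 18.4% and 17.95%. These pooled shares are given without a test, and cluster 5 had too few mice for one. Mice with more cells weigh more in them, and the clusters come from the same 8 mice, so they are not independent cases. In lymphoid-like cluster 8 the share rests on 2 Fcgr1 UMIs in control and 9 in cKO cells.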
